A study of Mus musculus with 12 samples.

Results

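Induced pluripotent stem cells (iPSCs) were compared with mouse embryonic fibroblasts (MEFs), the final and starting cell states of a reprogramming series, with 3 RNA-seq libraries a group, 6 of the 12 in the series. The comparison took in every gene that reached 1 FPKM in 3 or more of these 6 libraries, which was 16271 of 40384 genes in the deposited table (40.3%). FPKM counts the fragments of a gene, scaled by the gene's length and by all fragments counted in the library. Of the genes that passed, 12706 (78.1%) did so in both groups, 1852 (11.4%) through the iPSC libraries alone and 665 (4.09%) through the MEF libraries alone. A gene of these last kinds had to differ between the groups to enter, so its difference is described and supports nothing further.

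Per the labels, the MEFs came from male mid-gestation embryos that were homozygous for 4F2A, a doxycycline-inducible transgene for the 4 reprogramming factors Oct4, Sox2, Klf4 and Myc. Their source name is 4F2A cell, and that of the other group is iPSC cell. The growth text is the same for every library of the series: KnockOut DMEM with serum replacement, LIF at 1000 U/mL and doxycycline at 2 µg/mL. The treatment text, also shared, names DUX overexpression during reprogramming, and neither group carries a treatment label of its own. The labels state neither the passage of the cells, nor whether the iPSC libraries come from 1 line or several, nor whether libraries of a group are separate cultures. The p-values therefore measure the spread between these libraries, which may be technical.

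A fibroblast is a mesenchymal cell that secretes and contracts a collagen-rich matrix, and it keeps a record of its place in the embryo in its set of active Hox genes. Pluripotent cells instead form compact, epithelial colonies held by E-cadherin and run a self-sustaining network around Oct4, Sox2 and Nanog, fed by LIF through Stat3. During reprogramming the fibroblast programme is silenced, cells pass through a mesenchymal-to-epithelial transition, and the pluripotency network is established from the cells' own genes.

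Totals of counted fragments were inferred from the FPKM values. They were 22520000 to 28120000 for the MEF libraries and 24040000 to 26240000 for the iPSC libraries. Floors and bounds given below rest on these inferred totals. Between 14287 and 14354 genes reached 1 FPKM in a MEF library and between 15684 and 15834 in an iPSC library. Pearson correlations of log2(FPKM + 1) were 0.9936 to 0.9959 within a group and 0.8978 to 0.9073 between the groups. A defining marker of pluripotent cells went with the labels. Pou5f1 (Oct4) was at 0, 0 and 0 FPKM in the MEF libraries and 202, 206 and 222 FPKM in the iPSC libraries, so no fragment of the factor's gene was counted in MEFs although the shared growth text lists doxycycline. The 4 Y-linked genes of the sex chromosome list were measured in all 6 libraries, and Xist, the RNA that coats an inactive X chromosome, was at 29, 28.7 and 27.2 FPKM in MEFs and 17.9, 19.2 and 17.3 FPKM in iPSCs. The Y-linked genes go with the male label and the Xist level goes against it, for which a cause was not tested.

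Markers of cell types other than the labelled one were measured in both groups. All 16 macrophage markers passed the filter, 7 of them through MEFs alone. Their summed level was 1631 to 1677 FPKM in MEF libraries and 139 to 185 FPKM in iPSC libraries. The summed level of the fibroblast identity list was 1754 to 1764 FPKM in MEFs and 595 to 707 FPKM in iPSCs. Of 10 endothelial, 10 skeletal muscle, 12 neural and 12 trophoblast markers, 3, 3, 5 and 2 passed the filter. In bulk RNA, fewer cells of a type and less RNA per cell cannot be told apart, and this holds for every list described here.

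The groups differed over most of the transcriptome. In limma, at a Benjamini-Hochberg adjusted p under 0.05, 8425 genes (51.8%) were higher in iPSCs and 5027 (30.9%) were lower, 82.7% in all. A change of at least 2-fold, that is of 1 on the log2(FPKM + 1) scale, was called for 3430 genes upward (21.1%) and 1460 genes downward (8.97%). A change of at least 8-fold was called for 342 genes upward (2.10%) and 55 downward (0.338%). The 3 values of one group lay wholly above those of the other for 13671 genes (84.0%). All counts of list members below are to be read against these shares, and the rises and falls of single genes are differences on this log2 scale.

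**Figure D1:**
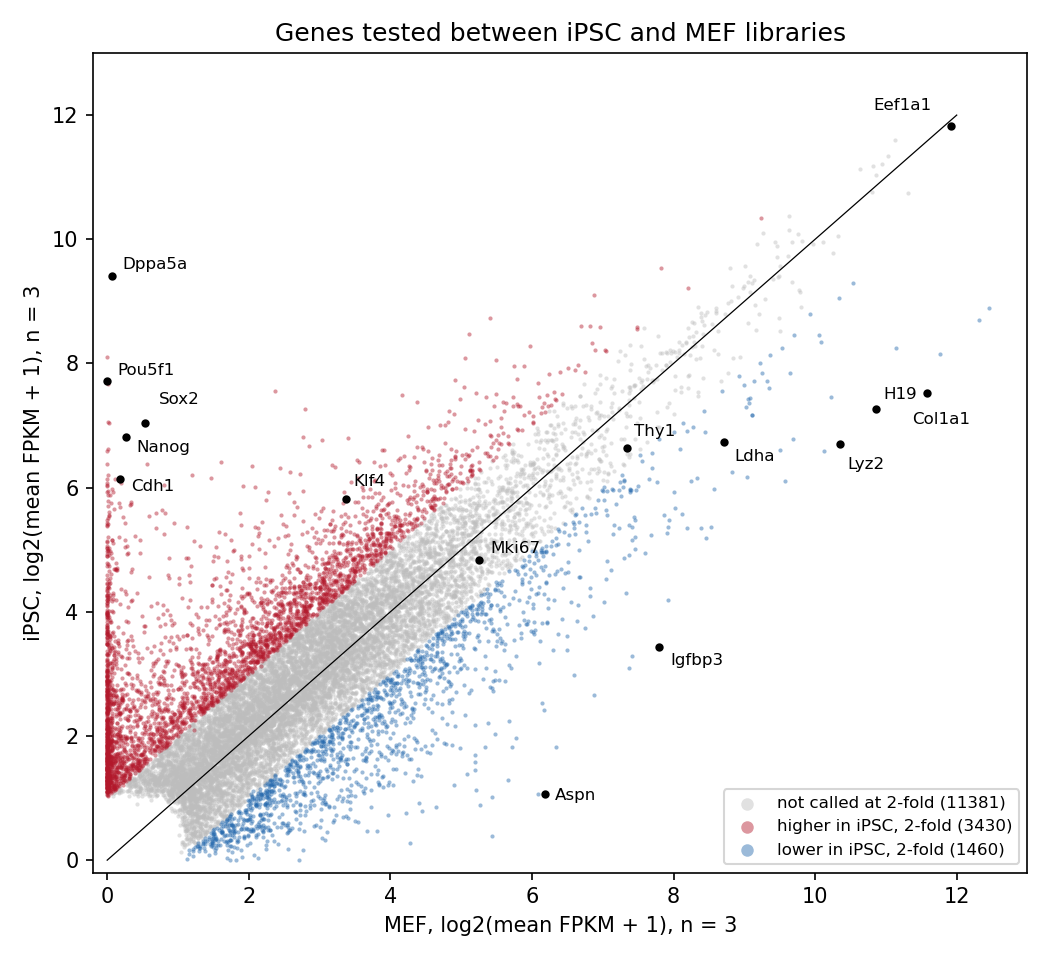
Log2(mean FPKM + 1) of the 3 iPSC libraries (vertical axis) against that of the 3 MEF libraries (horizontal axis) for the 16271 tested genes, coloured by the 2-fold call. Many of the 3430 higher genes stand at the left edge, where MEF values are at or near 0, while most of the 1460 lower genes stand above 0 on the iPSC axis.

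Higher and lower genes differed in what level remained in the other group. Of the 3430 genes higher by 2-fold, 1461 (42.6%) had a MEF mean under 1 FPKM and 996 (29%) one of at least 5 FPKM. For 648 of the 3430, every MEF library was at or under the floor of 3 fragments. Of the 1460 genes lower by 2-fold, 347 (23.8%) had an iPSC mean under 1 FPKM, 28 were at or under that floor in every iPSC library, and 586 (40.1%) kept an iPSC mean of at least 5 FPKM. The median log2 fold change of all 16271 genes was 0.23, and that of genes at 1 FPKM or more in all 6 libraries was 0.16. Scaling the libraries by median ratios brought the median of all genes to 0.04 and quantile normalization to −0.04, so small log2 changes depend on the scaling. The shift was larger for the most abundant genes, such as Eef1a1, which went from −0.10 to 0.51 under quantile normalization. The share of higher genes among called genes, 62.6% as deposited, was 52.1% and 47.9% under these scalings.

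The third iPSC library stood at the outer end of the group. It had the lowest of the 3 iPSC values in 979 of the 1460 genes lower by 2-fold (67.1%) and the highest in 1823 of the 3430 genes higher by 2-fold (53.1%). Without it, 3394 genes were higher and 1396 lower by 2-fold. Of the 224 genes named here, 221 kept their direction and their side of the threshold without it, Rplp0 was no longer called, and Spp1 and Tnc, which were not called in either fit, changed sign. For the genes the results turn on the values of each library are given below.

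The naive and core pluripotency factors were all higher in iPSCs: 16 of 16, each by more than 2-fold, with a median log2 fold change of 4.82. Of these genes 12 had passed the filter through iPSCs alone, and 6 were at or under the floor in every MEF library. With those 6 set at their bounds, the median was 4.78. Pou5f1, at chr17:35506018-35510772 of GRCm38 on the plus strand, rose by 7.72 (SE 0.047; limma adjusted p = 8.90e-10), and was at least 3544-fold higher with MEFs taken at the floor. Its partner Sox2 was at 0.28, 0.64 and 0.42 FPKM in MEFs and 131, 126 and 137 FPKM in iPSCs, a log2 rise of 6.52. Nanog, the homeodomain factor that stabilises the network, was at 0.17, 0.26 and 0.17 FPKM in MEFs and 99.2, 111 and 127 FPKM in iPSCs and rose by 6.55. For each of the 3 genes all iPSC values lay above all MEF values, which were under 1 FPKM.

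Among the naive factors, which mark the state before implantation, Esrrb, a nuclear receptor, was at 0.0073, 0.007 and 0.0059 FPKM in MEFs and 69.3, 71.7 and 78.1 FPKM in iPSCs. Nr0b1 (Dax1), another orphan nuclear receptor, was listed at 0 in the MEF libraries and at 67.7, 64.5 and 67.6 FPKM in the iPSC libraries. Zfp42 (Rex1), a marker of the naive state, was at 27, 29.8 and 34.8 FPKM in iPSCs and at most at the floor in MEFs. A pair of the reprogramming factors, for which transgene reads cannot be separated either, had a clear MEF level. Klf4, a zinc finger factor and member of the reprogramming set, was at 8.32, 10.4 and 9.45 FPKM in MEFs and 49.4, 54.4 and 62.6 FPKM in iPSCs, a rise of 2.44 (SE 0.10). Myc, the growth regulator of that set and not a member of the list, was at 12.8, 16.5 and 12.6 FPKM in MEFs and 20.5, 22.1 and 22.1 FPKM in iPSCs and rose by 0.60 (SE 0.099), below 2-fold. Gbx2, Prdm14 and Klf4 had the smallest rises of the list, 2.56, 2.62 and 2.44. In 13 of the 16 genes the highest iPSC value was in the third iPSC library.

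**Figure D2:**
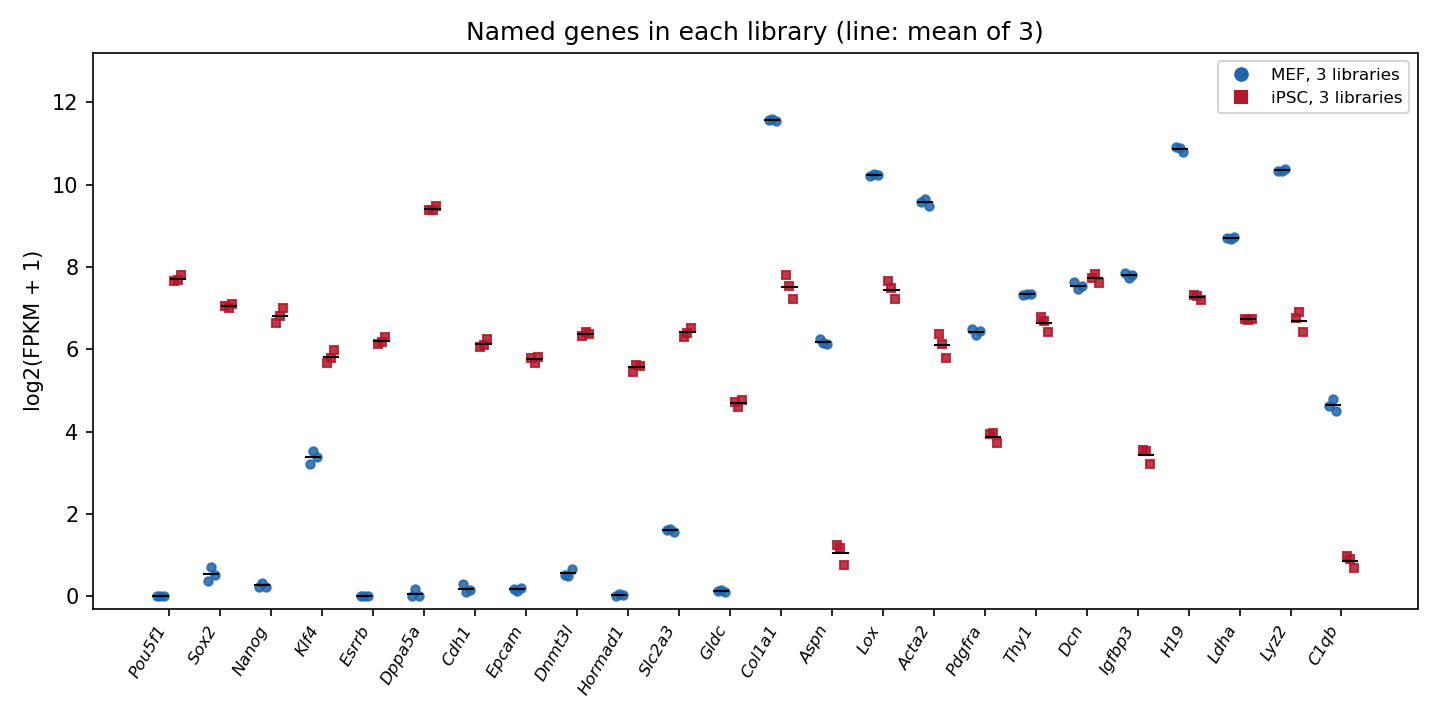
Level of 24 genes in each of the 6 libraries, as log2(FPKM + 1) on the vertical axis (blue circles MEF, red squares iPSC, black lines the mean of 3). Pou5f1 and most other pluripotency genes stand at or near 0 in the 3 MEF libraries, whereas Col1a1, Lox, Acta2, Thy1 and Lyz2 stay well above 0 in all 3 iPSC libraries.

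Effectors of pluripotency were higher in 26 of 27 cases, with a median of 5.03, and 23 of them had passed through iPSCs alone. Dppa5a, an RNA-binding protein of pluripotent and germ cells, had the largest fold change among genes with a proper name. It was at 0, 0.14 and 0 FPKM in MEFs and 667, 666 and 709.8 FPKM in iPSCs, a log2 rise of 9.35 (SE 0.061; limma adjusted p = 8.90e-10) and at least 3164-fold above the MEF floor. Tdgf1 (Cripto), the co-receptor of Nodal, was at 185, 206 and 218 FPKM in iPSCs and Utf1, a chromatin protein, at 128, 123 and 147 FPKM, both at or under the floor in MEFs. L1td1, an RNA-binding protein derived from a LINE-1 element, rose by 7.01. The ligands Nodal, Fgf4 and Gdf3 rose by 4.56, 5.03 and 4.38. The exception was Bmp4, a secreted ligand of the TGF-beta family, at 15.8, 15.9 and 15.5 FPKM in MEFs and 5.28, 6.03 and 6.51 FPKM in iPSCs, which fell by 1.28.

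Genes of the formative and primed states were higher in 6 of 8 tested members of 12 listed, and Fzd2, a Wnt receptor, fell by 2.60. Of the 8 tested, 5 had passed through iPSCs alone. Dnmt3b, the de novo DNA methyltransferase that rises towards implantation, was at 0.39, 0.4 and 0.35 FPKM in MEFs and 36.4, 33.4 and 34.2 FPKM in iPSCs. Otx2, a homeodomain factor of the epiblast, was at 12.1, 11.8 and 11.7 FPKM in iPSCs and at or under the floor in MEFs. None of 9 primitive streak and mesendoderm genes passed the filter. Their summed level was 0.272 to 0.363 FPKM in MEF libraries and 1.54 to 1.88 FPKM in iPSC libraries.

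The hairpin genes of 2 microRNA clusters known from pluripotent cells were at 0 in MEFs and measured in iPSCs. MicroRNAs bind targets through a seed, bases 2 to 8, and hairpins of these clusters share a few seeds. The mature sequences below, from RefSeq (GRCm38.p6), are printed 5′ to 3′ with the seed in capitals to show which hairpins share one.
miR-291a-3p: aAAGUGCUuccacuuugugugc
miR-294-3p: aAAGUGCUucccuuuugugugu
miR-295-3p: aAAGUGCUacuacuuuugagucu
miR-290a-3p: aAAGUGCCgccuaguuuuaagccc
miR-291b-3p: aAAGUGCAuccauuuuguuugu
miR-106a-5p: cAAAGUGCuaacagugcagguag
miR-20b-5p: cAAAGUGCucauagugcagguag
miR-363-3p: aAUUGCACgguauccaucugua
miR-92a-3p: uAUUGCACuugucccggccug

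The seed AAGUGCU is common to miR-291a-3p, miR-294-3p and miR-295-3p, while miR-290a-3p carries AAGUGCC and miR-291b-3p AAGUGCA. The pair miR-106a-5p and miR-20b-5p share AAAGUGC, and miR-363-3p and miR-92a-3p share AUUGCAC. All 9 hairpin genes of the miR-290 cluster on chromosome 7 were called higher by 2-fold, from 0 in each MEF library to between 2.26 and 38.9 FPKM. Mir295 was at 24.6, 28.1 and 33.7 FPKM and Mir291b at 28.6, 28.9 and 33.9 FPKM in iPSCs. All 6 hairpin genes of the miR-106a-363 cluster on the X chromosome were called likewise, from 0 to between 1.17 and 40.1 FPKM, and Mir363 was at 26.5, 40.1 and 34.8 FPKM. The hairpin genes of both clusters had passed the filter through iPSCs alone and so had to be higher. These are values of hairpin loci in poly-A libraries and are no measure of the mature microRNA. They rest on few fragments, 3.16 to 81.7 per library for the first cluster and 2 to 72.5 for the second. Mir106a and Mir20b were under the floor of 3 fragments in at least 1 iPSC library, so the size of their rise is not bounded. Hairpins of a cluster lie on 1 primary transcript and are not independent, and Mir290b and Mir292b overlap Mir290a and Mir292 on the other strand. The 5 hairpins of the miR-302 cluster, of which miR-302b and miR-302d carry the seed AAGUGCU too, did not pass the filter, with at most 2.5 fragments in any iPSC library. The host transcript of the miR-17-92 cluster, Mir17hg, rose by 2.27. Of the 6 hairpins of that cluster 1 passed the filter, Mir92-1, which rose by 1.38. Among 4 tested microRNA host genes 2 were higher and 2 lower.

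Germline genes formed the other large group that was near 0 in MEFs. Of 39 listed, 32 were tested, 29 were higher, 28 of them by 2-fold, and the median was 2.76. The filter passed 28 of the 32 through iPSCs alone, and 18 were at or under the floor in MEFs, with which the median at their bounds was 2.69. All 9 tested meiosis genes rose. Hormad1, a protein of meiotic chromosome axes, was at 0.0064, 0.031 and 0.026 FPKM in MEFs and 42.7, 48.1 and 47.7 FPKM in iPSCs, a rise of 5.53. Sohlh2, a transcription factor of germ cell differentiation, rose by 4.70, and Dazl, an RNA-binding protein of germ cells, by 4.46. Rpl10l, a testis paralogue of a ribosomal protein gene, was listed at 0 in MEFs and at 68.8, 66.2 and 72.6 FPKM in iPSCs. Because it has a near-identical expressed copy, counting could split its reads, and the same holds for Tuba3a and Tuba3b. The other members were lower: Hspb11 by 0.95, Tdrkh by 0.53 and Prdm1 (Blimp1), a repressor that specifies germ cells, by 0.33.

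Some promoters of germline genes hold the E-box CACGTG, the sequence bound by Myc family factors and by the Max-containing repressor complex. The motif reads the same on both strands and was looked for in the 250 bases before the start site in RefSeq windows (GRCm38.p6). Of the 32 tested germline genes, 28 had a window (87.5%), and 9 held the motif: Ddx4, Hormad1, Mael, Mov10l1, Slc25a31, Stk31, Sycp1, Sycp3 and Taf7l. Over all windows of this length, 1978 of 32851 (6.02%) held it, a share of windows and not of genes. The 28 genes had 31 windows. A match describes letters, not a bound site. The windows of 4 of the 9, chosen after the matches were seen to show where the motif stands, are printed 5′ to 3′ on the gene's strand with the E-box in capitals.
Hormad1, chr3:95559427-95559676, plus strand: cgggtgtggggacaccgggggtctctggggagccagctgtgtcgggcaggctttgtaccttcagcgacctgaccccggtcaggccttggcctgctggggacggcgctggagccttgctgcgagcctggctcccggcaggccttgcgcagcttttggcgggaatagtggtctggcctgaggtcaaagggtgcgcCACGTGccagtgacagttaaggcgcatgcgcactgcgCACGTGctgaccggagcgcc
Mael, chr1:166238745-166238994, minus strand: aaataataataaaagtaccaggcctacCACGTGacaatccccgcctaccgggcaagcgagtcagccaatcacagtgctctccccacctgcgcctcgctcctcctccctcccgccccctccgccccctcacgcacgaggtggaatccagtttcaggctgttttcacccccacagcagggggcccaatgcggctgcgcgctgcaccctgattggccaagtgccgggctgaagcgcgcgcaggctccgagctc
Sycp1, chr3:102936101-102936350, minus strand: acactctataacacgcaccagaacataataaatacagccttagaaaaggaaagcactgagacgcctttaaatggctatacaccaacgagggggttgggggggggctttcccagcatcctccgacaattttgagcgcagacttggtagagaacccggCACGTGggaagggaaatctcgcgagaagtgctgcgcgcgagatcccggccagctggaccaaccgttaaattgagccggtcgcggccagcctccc
Taf7l, chrX:134476491-134476740, minus strand: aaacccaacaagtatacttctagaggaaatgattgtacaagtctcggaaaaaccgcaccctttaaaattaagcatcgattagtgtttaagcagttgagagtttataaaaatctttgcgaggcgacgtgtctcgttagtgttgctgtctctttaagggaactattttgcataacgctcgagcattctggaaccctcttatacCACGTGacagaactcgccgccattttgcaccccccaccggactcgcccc

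The Hormad1 window holds 2 matches, which start at positions −57 and −20 from the start site. The single match starts at −223 in Mael, −94 in Sycp1 and −49 in Taf7l. Mael, which acts in transposon silencing, was at 0, 0 and 0 FPKM in MEFs and 15, 12.9 and 15.2 FPKM in iPSCs, a rise of 3.94. Sycp1, a filament protein of the synaptonemal complex, rose by 3.45, and Taf7l, a testis paralogue of a TFIID subunit, by 3.56. Dazl and Sohlh2, whose windows hold no match, rose too. A window of Ldha, which fell, holds 2 matches. The octamer ATGCAAAT was also looked for, in the 16 naive and core pluripotency factors. Of 11 with a window, Zfp42 alone held it, against 526 of all 32851 windows (1.6%).

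Of 22 genes of the 2-cell stage in the table, 1 passed the filter. It was Zfp750, which passed through iPSCs alone and rose by 2.14. The list's summed level was 0.251 to 0.519 FPKM in MEFs and 5.95 to 9.55 FPKM in iPSCs. Duxf3, the mouse gene of the factor named in the treatment text, did not pass, at 0, 0 and 0.013 FPKM in MEFs and 0.0039, 0.0038 and 0.025 FPKM in iPSCs.

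Most epithelial genes were higher in iPSCs. Of 37 listed, 30 were tested and 29 were higher, 25 of them by 2-fold, with a median of 2.13. Of the 30, 24 had passed through iPSCs alone. Cdh1 (E-cadherin), the adhesion protein of epithelia, was at 0.22, 0.079 and 0.11 FPKM in MEFs and 65.2, 68.3 and 74.7 FPKM in iPSCs, a rise of 5.95 (SE 0.071; limma adjusted p = 3.70e-09). Epcam, an epithelial adhesion molecule, was at 53.8, 50 and 55.2 FPKM in iPSCs and rose by 5.59. The tight junction claudins Cldn4 and Cldn6 rose by 4.33 and 4.00. Grhl2, a transcription factor of epithelial identity, rose by 3.64, and Esrp1, which sets epithelial splicing, by 2.62. The keratins did not move as one: Krt8 rose by 2.09, whereas Krt19 was at 3.74, 3.57 and 3.37 FPKM in MEFs and 1.84, 1.45 and 1.49 FPKM in iPSCs and fell by 0.82.

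Of 11 mesenchymal transition factors, 9 were lower and 4 of them by 2-fold, with a median of −0.99. Prrx2, a homeobox gene of limb mesenchyme, fell by 2.28, and Snai1, a repressor of E-cadherin, was at 39.9, 40.5 and 38.9 FPKM in MEFs and 14.9, 14.3 and 14.8 FPKM in iPSCs and fell by 1.38. Zeb1 and Zeb2 each fell by 0.99. Twist2 was the exception, at 11.3, 11.4 and 11.7 FPKM in MEFs and 24.1, 23.4 and 19.2 FPKM in iPSCs, a rise of 0.89.

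Fibroblast identity genes were lower in 27 of 31 tested members, 16 of them by 2-fold, with a median of −1.09. The iPSC mean of the 27 lower genes was 10.4 to 76.1% of the MEF mean with a median of 33.7%, and 26 of the 27 had an iPSC mean of at least 1 FPKM. The receptor genes Pdgfra and Pdgfrb, which bind platelet-derived growth factor, fell by 2.55 and 2.39. Pdgfrb was at 93.6, 91.2 and 92.3 FPKM in MEFs and 18.6, 17.1 and 15.1 FPKM in iPSCs. S100a4, a calcium-binding protein also called fibroblast-specific protein, fell by 2.43. Thy1, a surface protein used to sort fibroblasts away from reprogrammed cells, was at 159, 161 and 162 FPKM in MEFs and 109.6, 102 and 84.8 FPKM in iPSCs and fell by 0.71. Its groups did not overlap, yet the iPSC values stayed within 2-fold of the MEF values. Eng and Cd34, surface proteins also found on blood vessel cells, were higher, by 0.98 and 0.95, and Cd44 by 0.22, a size that depends on the scaling.

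**Figure D3:**
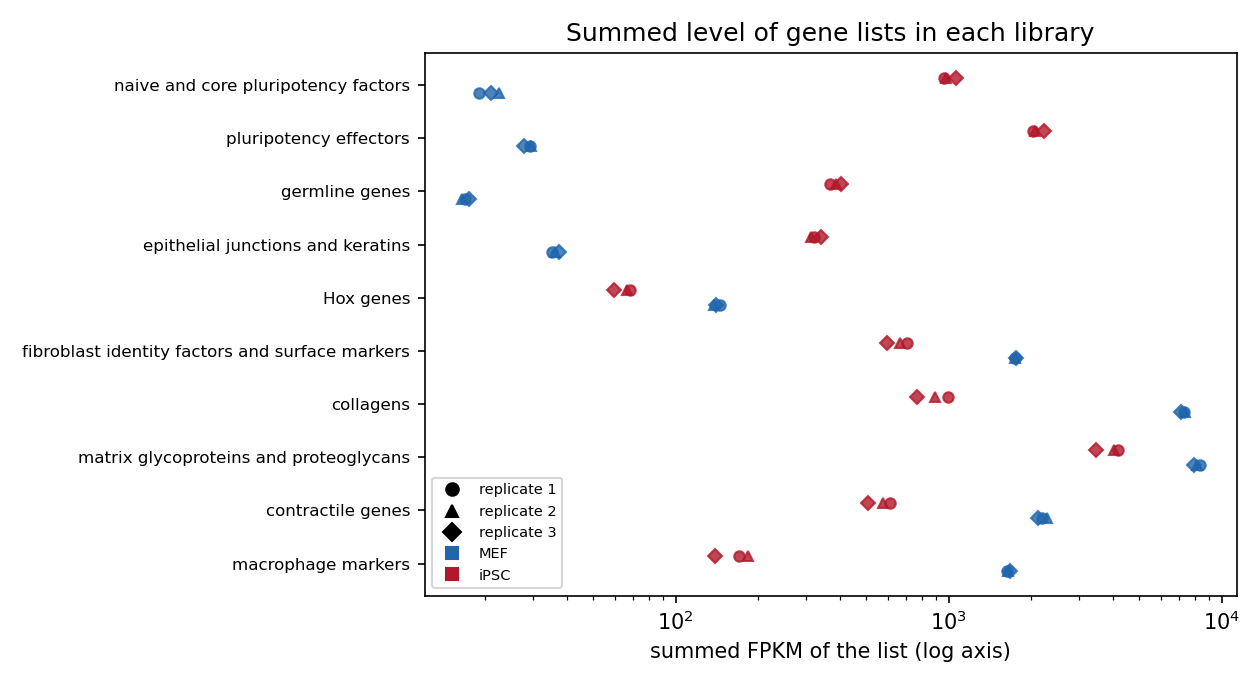
Summed FPKM of 10 gene lists in each library, on a log axis (blue MEF, red iPSC, marker shape the replicate number). The core pluripotency sum is 961 to 1064 FPKM in iPSCs against 18.99 to 22.5 FPKM in MEFs, and the fibroblast, collagen and macrophage sums are lowest in the third iPSC library.

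Most genes of the extracellular matrix were lower in iPSCs. Of 22 tested collagens, 21 were lower and 17 of them by 2-fold, with a median of −2.48. Of the 22, 2 had passed through MEFs alone. Col1a1, the main chain of type I collagen at chr11:94936224-94953042 on the plus strand, was second only to Eef1a1 among the most abundant protein-coding genes of MEFs. It was at 3049, 3083 and 3009 FPKM in MEFs and 221, 184 and 147 FPKM in iPSCs, a fall of 4.06 (SE 0.14; limma adjusted p = 1.77e-07). Col1a2, Col11a1 and Col5a1, which build the same fibrils, fell by 3.56, 3.52 and 3.29. The fibrillar collagens had a median of −2.92 over 9 genes and the type IV collagens of the basement membrane −1.16 over 3. Col18a1, the source of endostatin and listed among the other collagens, was the exception, at 27.6, 28.1 and 28.5 FPKM in MEFs and 74.6, 71.7 and 74.1 FPKM in iPSCs, a rise of 1.36. The iPSC mean of the lower collagens was 2.66 to 66.3% of the MEF mean, with a median of 13.7%.

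Matrix glycoproteins and proteoglycans were lower in 21 of 24 members and had a median of −1.76. A further 1, a proteoglycan, was higher by less than 2-fold, and 2 were not called. Of the 24, 2 had passed through MEFs alone. Aspn (asporin), a small proteoglycan that binds collagen, had the largest fall among genes with at least 5 FPKM in MEFs and a symbol that is no predicted-gene name. It was at 75.1, 70.3 and 69.1 FPKM in MEFs and 1.35, 1.24 and 0.7 FPKM in iPSCs and fell by 5.13 (SE 0.12; limma adjusted p = 4.34e-08). Mfap4, a microfibril protein, fell by 4.17, Ogn (osteoglycin) by 3.70 and Postn (periostin) by 3.20. Fn1 (fibronectin), a ligand of integrins, fell by 0.99 from 740.1, 755 and 683 FPKM to 374, 378 and 343 FPKM. Spp1 (osteopontin) and Tnc (tenascin C) were not called, with log2 differences of −0.04 and −0.10 that changed sign under quantile normalization. Among genes outside the lists, the matrix proteins Tnn (tenascin N) and Thbs4 (thrombospondin 4) fell by 5.05 and 4.00, and Itga11, a collagen-binding integrin, by 4.44.

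All 10 collagen crosslinking and modifying enzymes were lower by 2-fold, with a median of −2.46. Lox (lysyl oxidase) was at 1179.9, 1215 and 1206 FPKM in MEFs and 199.7, 177 and 149 FPKM in iPSCs and fell by 2.78. The prolyl hydroxylase subunits P4ha3 and P4ha1 fell by 3.17 and 2.87. Over the whole list of 27 matrix enzymes and inhibitors 24 were lower, with Adamts5, an aggrecanase, falling by 3.73. The exceptions were Mmp10 (stromelysin 2), at 2, 2.05 and 1.7 FPKM in MEFs and 23, 22.7 and 21.7 FPKM in iPSCs, a rise of 3.01, Serpine2, a protease inhibitor, with a rise of 1.67, and Mmp9, a gelatinase, with a rise of 0.80.

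Laminins of the basement membrane were split. Of 12, 6 were higher and 4 lower, with a median of 0.26. The filter passed 3 of them through iPSCs alone and 1 through MEFs alone. Lama1, the laminin chain of early embryos, was at 1.54, 1.49 and 1.44 FPKM in MEFs and 29.4, 33.8 and 33.8 FPKM in iPSCs, a rise of 3.74, and Lama3 and Lama5 rose by 3.05 and 1.81. Lama4, Lamb2 and Lama2 fell by 1.61, 1.30 and 1.19.

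All 15 tested contractile genes were lower, 13 of them by 2-fold, with a median of −1.63. Of the 15, 1 had passed through MEFs alone. Acta2, the smooth muscle actin of myofibroblasts, was at 767, 808 and 711 FPKM in MEFs and 81.8, 68.4 and 54.4 FPKM in iPSCs and fell by 3.48 (SE 0.14; limma adjusted p = 3.94e-07). Myl9, a myosin light chain, and Tagln (transgelin) fell by 2.48 and 2.26. In each of the 15 genes the lowest value was in the third iPSC library. Genes of TGF-beta, YAP and BMP signalling were lower in 13 of 20 members. Tgfbi, a matrix protein induced by TGF-beta, fell by 2.94, the ligand Tgfb3 by 2.66 and Ccn2, a target of TGF-beta and YAP, by 2.00. Ajuba, a LIM protein of the Hippo pathway, and Smad7, an inhibitor of TGF-beta receptors, rose by 1.89 and 1.46.

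Secreted growth signals were mixed. Of 25, 9 were higher and 13 lower. Igfbp3, the main carrier of insulin-like growth factors in blood, was at 231, 213 and 222 FPKM in MEFs and 10.8, 10.6 and 8.23 FPKM in iPSCs and fell by 4.37. Igf1 and Igf2 fell by 2.47 and 2.56, and Cxcl12, a chemokine of stromal cells, by 2.41. Igf2bp1, an RNA-binding protein of fetal tissues, and Igfbp2 rose by 2.62 and 2.31. Il6, a cytokine that signals through the same receptor subunit as LIF, rose by 2.07 from 12.1, 9.08 and 12.3 FPKM to 50.8, 52.8 and 46 FPKM.

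**Figure D4:**
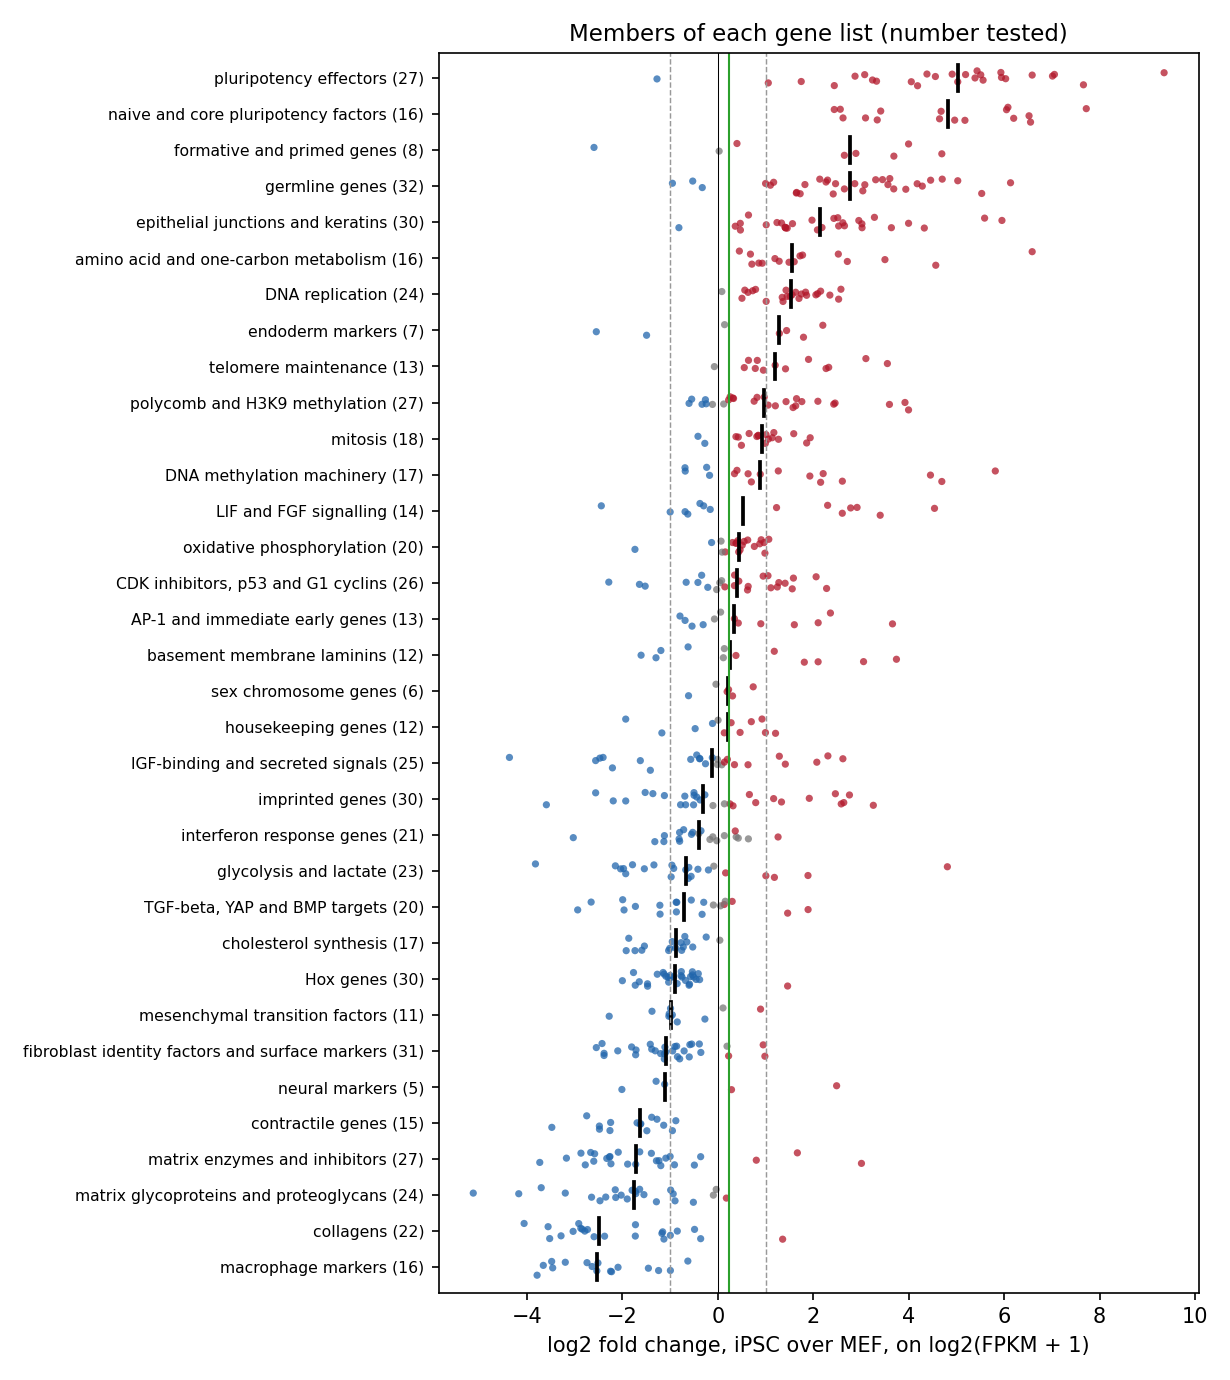
Log2 fold change (iPSC over MEF, on log2(FPKM + 1)) of every tested member of the gene lists, one point per gene (red called higher, blue called lower, grey not called). Black bars are list medians, the green line is the median of all tested genes, 0.23, and dashed lines mark 2-fold. The pluripotency lists have medians of 4.82 and 5.03, and the collagen and macrophage lists medians of −2.48 and −2.53.

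Most Hox genes were lower in iPSCs. Of 39 Hox genes 30 passed the filter, 10 of them through MEFs alone, and 29 were lower, 13 by 2-fold, with a median of −0.89. Hoxa10, a patterning gene of the posterior body and limb, was at 11.5, 11.8 and 12.8 FPKM in MEFs and 3.01, 2.19 and 1.68 FPKM in iPSCs, a fall of 2.00. Hoxd13 and Hoxd12, at the posterior end of their cluster, fell by 1.77 and 1.73, and Hoxa9 by 1.65. The iPSC mean of the lower genes was 6.12 to 74.6% of the MEF mean, with a median of 38.8%. Of the 29 lower genes 19 had an iPSC mean of at least 1 FPKM. Hoxc13, a regulator of hair keratins, was the exception, at 0.018, 0.16 and 0.029 FPKM in MEFs and 2.04, 1.84 and 1.93 FPKM in iPSCs, a rise of 1.46.

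**Figure D5:**
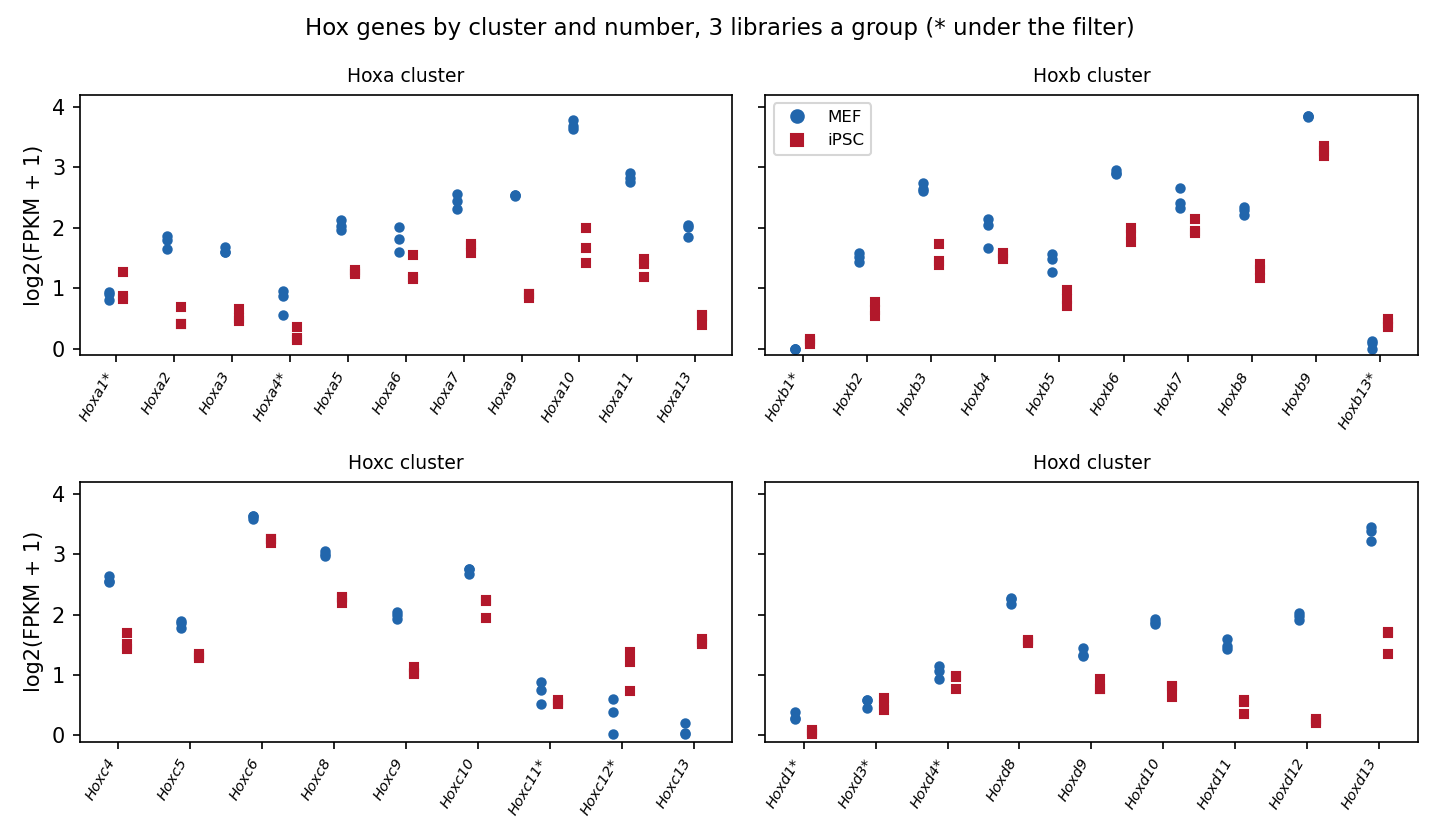
Level of each Hox gene in the table, as log2(FPKM + 1), by cluster and number, with 3 points per group (blue circles MEF, red squares iPSC; an asterisk marks genes under the filter). Of the 30 tested genes, 29 were lower in iPSCs, and Hoxc13, with MEF points at or near 0, is the exception.

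Imprinted genes, which are expressed from 1 parental copy, moved in both directions. Of 30 tested 12 were higher and 16 lower. The filter passed 2 of the 30 through iPSCs alone and 1 through MEFs alone. H19, a maternally expressed noncoding RNA at chr7:142575529-142578143 on the minus strand, was at 1934, 1902 and 1763 FPKM in MEFs and 159, 157 and 146 FPKM in iPSCs, a fall of 3.59 (SE 0.059; limma adjusted p = 1.16e-08). Igf2, its paternally expressed neighbour, fell by 2.56, and Dlk1, a paternally expressed Notch ligand, by 2.19. Meg3, the maternally expressed RNA of the Dlk1 domain whose silencing has been linked to poor iPSC lines, was at 46.8, 47.3 and 41.9 FPKM in MEFs and 26.2, 27.4 and 24.2 FPKM in iPSCs and fell by 0.78. Peg10, a gene derived from a retrotransposon, rose by 3.26. Zdbf2 rose by 2.76 and Phlda2, a regulator of placental growth, by 2.64. Snrpn, a splicing protein gene, and Snurf, which shares its transcript and hence reads, rose by 2.46 and 2.58. The data do not separate the parental copies.

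The DNA methylation machinery was higher in 13 of 17 members, 8 by 2-fold, with a median of 0.89. Of the 17, 3 had passed through iPSCs alone and so had to be higher, Dnmt3l and Tet1 among them. Dnmt3l, the catalytically inactive partner of the de novo methyltransferases, was at 0.44, 0.41 and 0.59 FPKM in MEFs and 79.7, 84.1 and 82.2 FPKM in iPSCs, a rise of 5.81. Tet1, the oxidase of methylcytosine typical of pluripotent cells, was at 0.78, 0.73 and 0.71 FPKM in MEFs and 33.5, 36.4 and 42 FPKM in iPSCs, a rise of 4.45, while Tet3 fell by 0.68. Zfp57, which protects imprints, and its cofactor Trim28 rose by 2.61 and 2.21. Mbd2, a reader of methylated DNA, fell by 0.69.

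Polycomb group and H3K9 methylation genes were higher in 20 of 27 members, 13 by 2-fold, with a median of 0.97. Of the 27, 1 had passed through iPSCs alone, Cbx7, and 1 through MEFs alone. Of 10 genes of the PRC2 complex, which methylates H3K27, 9 were higher. Epop, an accessory subunit, was at 1.12, 1.45 and 1.44 FPKM in MEFs and 36.2, 32.4 and 34.4 FPKM in iPSCs, a rise of 3.92, and Jarid2, which recruits the complex, rose by 3.59. Mtf2 rose by 2.46. In PRC1, which ubiquitinates H2A, the chromodomain proteins differed among themselves: Cbx7 was at 0.92, 0.67 and 0.9 FPKM in MEFs and 27.5, 27.5 and 29.4 FPKM in iPSCs, a rise of 4.00, whereas Cbx6 fell by 0.55.

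Telomere maintenance genes were higher in 12 of 13 tested members, with a median of 1.20. Rif1, a telomere-binding protein with a role in replication timing, rose by 3.55, and Dkc1 (dyskerin), a core protein of the telomerase complex, was at 4.64, 4.39 and 4.45 FPKM in MEFs and 44.6, 46 and 47.9 FPKM in iPSCs, a rise of 3.10. Nhp2 and Gar1, partners of dyskerin, rose by 2.32 and 2.27. DNA replication genes were higher in 23 of 24 members, 18 by 2-fold, with a median of 1.54. The helicase subunits Mcm2 and Mcm5 rose by 2.58 and 2.35, and Mcm2 was at 8.91, 9.41 and 9.22 FPKM in MEFs and 58, 57.8 and 63.8 FPKM in iPSCs. Mitosis genes were higher in 16 of 18 members with a median of 0.92, led by Ccnb1 and Cdc20 at 1.93 and 1.86. Mki67, the Ki-67 antigen of cycling cells, was at 39.4, 37 and 35.3 FPKM in MEFs and 25, 28.5 and 29.6 FPKM in iPSCs and fell by 0.42. Aurkb fell by 0.27, and by 0.50 under median-ratio scaling and 0.51 under quantile normalization.

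The 7 CDK inhibitors, 7 genes of the p53 axis and 12 cyclin or E2F genes moved apart. Of the inhibitors 5 were lower, with Cdkn2c (p18), Cdkn2d (p19) and Cdkn1c (p57) falling by 2.29, 1.64 and 1.52. Cdkn2a, the Ink4a and Arf locus and a barrier to reprogramming, was at 14.1, 16 and 16.5 FPKM in MEFs and 13, 11.5 and 9.75 FPKM in iPSCs and fell by 0.42 (SE 0.10). All 7 genes of the p53 axis were higher. Trp53 rose by 1.58, its target and antagonist Mdm2 by 2.06 and Sesn2, a stress-induced target, by 2.28. Cdc25a, a phosphatase that opens the G1 to S transition, rose by 1.41.

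Glycolysis genes were lower in 17 of 23 members, 8 by 2-fold, with a median of −0.67, and 5 were higher. Ldha, which makes lactate from pyruvate, was at 418, 411 and 422 FPKM in MEFs and 106, 104 and 105 FPKM in iPSCs and fell by 1.98 (SE 0.036; limma adjusted p = 1.64e-08). Slc16a3 (MCT4), which exports lactate, fell by 3.82, and the enzymes Tpi1 and Aldoc by 2.15 and 2.04. The glucose transporters moved in opposite directions: Slc2a3 (Glut3) was at 2.07, 2.1 and 1.93 FPKM in MEFs and 77.7, 83.9 and 91 FPKM in iPSCs, a rise of 4.81, whereas Slc2a1 (Glut1) fell by 0.98. Ldhb, the lactate dehydrogenase subunit of oxidative tissues, rose by 1.89, and Pfkp and Hk2 rose by 1.18 and 1.01. The oxidative phosphorylation list was higher in 16 of 20 members, 1 of them by 2-fold, with a median of 0.45. Atp5b, the catalytic subunit of ATP synthase, rose by 1.07. Cox4i2, the hypoxia-induced subunit of cytochrome oxidase, fell by 1.74. Ndufa4l2, another hypoxia-induced mitochondrial gene and not a list member, had the third largest fall by the measure in which Aspn was first, from 70.5, 68.2 and 61.2 FPKM to 1.14, 1.03 and 1.12 FPKM.

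All 16 genes of amino acid and one-carbon metabolism were higher, 11 by 2-fold, with a median of 1.54. Of the 16, 2 had passed through iPSCs alone and so had to be higher, Tdh among them. Tdh, threonine dehydrogenase, the enzyme through which mouse pluripotent cells break down threonine, was listed at 0 in MEFs and at 90.2, 94.8 and 101 FPKM in iPSCs, at least 1868-fold above the MEF floor. Gldc and Amt, which belong to the glycine cleavage system that passes carbon to folate, rose by 4.57 and 3.50. Shmt1, which links serine to glycine, rose by 2.71. Cholesterol synthesis genes were lower in 16 of 17 members, 7 by 2-fold, with a median of −0.89. Fdps, which makes farnesyl pyrophosphate, fell by 1.92 and Hmgcs1, which acts early in the pathway, by 1.87.

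In LIF and FGF signalling, 7 of 14 tested genes were higher and 7 lower, and 2 of the 14 had passed through iPSCs alone. Il6st (gp130), the signalling subunit of the LIF receptor, was at 137, 140.0 and 135 FPKM in MEFs and 25.9, 24.6 and 22.8 FPKM in iPSCs and fell by 2.44. Jak1, its kinase, fell by 1.00 and Socs3, a feedback inhibitor of the pathway, by 0.69. Etv5 and Etv4, transcription factors induced by FGF, rose by 3.40 and 2.78, and Dusp6, a phosphatase of ERK, was at 7.33, 7.14 and 6.79 FPKM in MEFs and 47.3, 49.6 and 47.7 FPKM in iPSCs, a rise of 2.61. Pecam1, an adhesion molecule of endothelium that is also found on naive pluripotent cells, rose by 4.54. Among immediate early genes Nr4a1, an orphan nuclear receptor, Ier2 and Fosl1 rose by 3.66, 2.36 and 2.10. Zfp36 (tristetraprolin), which destabilises messenger RNA, and Fosl2 fell by 0.79 and 0.69.

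Interferon response genes were lower in 11 of 21 members, higher in 2 and not called in 8, with a median of −0.40. Ifitm1, Psmb8 and Ifitm3 fell by 3.03, 1.32 and 1.13. Oas2, a sensor of double-stranded RNA, rose by 1.26. Cxcl10, an interferon-induced chemokine, was among the 6 genes with the largest spread within iPSCs, at 14.8, 7.83 and 14.7 FPKM in MEFs and 20.2, 5.68 and 13.8 FPKM in iPSCs, and was not called. The other 5 were short or predicted noncoding RNAs.

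Macrophage markers were lower in 16 of 16 cases, 14 by 2-fold, with a median of −2.53. Lyz2 (lysozyme), a secreted product of myeloid cells, was the fifth most abundant protein-coding gene of MEFs. It was at 1285, 1296 and 1329 FPKM in MEFs and 107, 119 and 84 FPKM in iPSCs, a fall of 3.66 (SE 0.12; limma adjusted p = 1.54e-07). The complement genes C1qb and C1qa fell by 3.79 and 3.48, and Adgre1 (F4/80), a defining surface protein, by 2.51. Cx3cr1, a chemokine receptor of tissue macrophages, was at 3.05, 3.73 and 3.3 FPKM in MEFs and 0.028, 0.014 and 0.019 FPKM in iPSCs, with an iPSC mean at 0.6% of its MEF mean. None of the 16 was at 0 in any iPSC library. Marco, a scavenger receptor of macrophages and not a list member, fell by 4.22. The macrophage, fibroblast and collagen sums were each lowest in the third iPSC library. The part of macrophage RNA in the other results was not tested.

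Some genes called in 1 direction lay side by side on a chromosome. Genes that follow each other among the tested genes and are all called by 2-fold in 1 direction formed runs. There were 116 upward runs of at least 4 genes (641 genes) and 27 downward runs (131 genes). With 21.1% of tested genes called higher and 8.97% lower by 2-fold, some short runs arise from order alone. How many do was not tested. The longest held 40 genes at chr13:65336222-66854871, of which 4 are protein-coding, with a median of 2.43. Runs of 24 and 15 genes lay at chr4:145825237-147060794 and chr4:147132038-147809788, in a cluster of zinc finger genes. On the X chromosome, runs of 11, 8 and 8 genes held the Xlr, Fthl17 and Rhox families, which are expressed in germ cells and early embryos. The longest downward runs had 8 genes each. One spanned Hoxa10 to Hoxa13 at chr6:52231197-52260880, with a median of −1.51. The other spanned H19 and Igf2 at chr7:142575529-142670356, with a median of −3.06, and held Mir675, which lies within the H19 transcript and shares its reads. A run of 7 held the complement genes C1ra and C1s1, and a run of 6 the chemokine genes Ccl3, Ccl4, Ccl5, Ccl6 and Ccl9. Members of such families are near copies or overlap, so fragments can be shared among them and their number overstates the independent changes.

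By biotype, long intergenic noncoding RNAs were called higher by 2-fold in 181 of 347 cases (52.2%), against 20.5% of protein-coding genes. Genes that passed the filter through iPSCs alone had to be higher, and they were not counted by biotype, so these shares depend on the filter. Platr10, a noncoding RNA named for its tie to pluripotency, was listed at 0 in MEFs and at 85.2, 79.5 and 81.4 FPKM in iPSCs. Lower by 2-fold were 22 of the 347 (6.34%). Among autosomes and the X chromosome, the median log2 fold change of genes at 1 FPKM or more in all 6 libraries was between 0.03, on the X, and 0.24, on chromosome 5.

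The most abundant protein-coding genes differed between the groups. In MEFs the 8 highest mean levels were those of Eef1a1, Col1a1, Rplp1, Lgals1, Lyz2, Thbs1, Actb and Lox, of which Col1a1, Thbs1 and Lox make or bind matrix. In iPSCs they were those of Eef1a1, Rplp1, Ptma, Ftl1, Hsp90ab1, Rps15, Rplp0 and Eef2, mostly of translation. Ptma (prothymosin), a small nuclear protein of growing cells, was at 599.9, 582 and 632 FPKM in MEFs and 1273, 1247 and 1358 FPKM in iPSCs, a rise of 1.10. Lgals1 (galectin 1), a lectin of mesenchymal cells, was at 1456, 1472 and 1499.7 FPKM in MEFs and 652, 641 and 581 FPKM in iPSCs and fell by 1.24. The 12 housekeeping genes did not form a flat reference: 7 were higher and 4 lower, from Pgk1, a fall of 1.93, to Polr2a, a rise of 1.21, with a median of 0.21 that became −0.03 under median-ratio scaling.

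Other cell type markers were few. Of the endoderm list 7 of 12 passed, 4 of them through iPSCs alone. Of the 7, 4 were higher and 2 lower, with Gata4 rising by 1.79 and Dab2 falling by 1.49. The sum of that list was 114 to 123 FPKM in MEFs and 38.5 to 41.7 FPKM in iPSCs, with Pdgfra, also a fibroblast gene, among its members. Tfap2c, listed for trophoblast and also active in germ cells, rose by 3.60, and Olig2, listed for neural cells, by 2.49. Both had passed through iPSCs alone and so had to be higher. Of the 5 tested neural markers 2 were higher and 3 lower, those by 2-fold, and the sum of that list was 51.4 to 52.6 FPKM in MEFs and 31.5 to 32.8 FPKM in iPSCs. For 4602 tested genes (28.3%) the 95% confidence interval of the log2 difference lay within ±0.5.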

How the data were processed

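RNA-seq of 6 of the 12 libraries of the series was compared. Per the labels' protocols, poly-A RNA went into stranded libraries (15 PCR cycles), read in pairs of 150 bp on a NovaSeq 6000. The genome build was mm10, per the submitters' processing notes. The aligner, the counter, the annotation and whether counting used strand are unstated in the sources used here, so reads of a gene and an antisense or overlapping partner cannot be told apart.

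The authors deposited FPKM values, with 1 column per library. All 12 columns were mapped by name, and no 2 were identical (0 of 66 pairs). Of 40384 gene IDs, 40225 (99.6%) matched GENCODE M21 (GRCm38), the source of symbols, positions and exon lengths. FPKM times exon length gave steps from which depth and fragments per gene were recovered. Of low values 51.7 to 52.4% were whole within 0.01 fragments, too few to call the reads recovered. These fragments were used for the floor of 3 fragments per library and for 1 alternative. Floors cover counting error only.

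Values were taken as log2(FPKM + 1), which understates the change of low genes. Genes that reached 1 FPKM in 3 or more of the 6 libraries were fitted with limma 3.58.1 in R 4.3.3, with a variance prior that follows mean expression and Benjamini-Hochberg adjustment over 16271 genes. Thresholds were an adjusted p under 0.05 and, where stated, 2-fold or 8-fold. The test was checked on simulated data. Log2 changes are iPSC minus MEF, with the standard error (SE) of the fit, and n = 3 libraries a group throughout. Levels are compared between genes only as FPKM, which is per length.

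The members and the gene lists were chosen with earlier results of these data known. The genes named were up to 4 called members at each end of a list and those called against most of it, the 12 genes at each end of the fold change with a group mean of at least 5 FPKM, the 8 most abundant of each group, the 6 most variable, and a few always named, such as Pou5f1 and Ldha. Some further genes, such as list members named for a known role, were chosen after their values were seen, and a few genes that meet the rule are not reported here. Correlations between same-numbered libraries' deviations from their group means were −0.161, 0.056 and −0.139. The largest of any pair was 0.244, between MEF 3 and iPSC 1. These gave no sign of pairing by replicate number, and no block was used. With 3 libraries a group, a shared source cannot be told from these values. Alternatives were other pseudocounts, filters, scalings and fits, leaving out each library, and, chosen after seeing the data, voom on recovered fragments. Promoter and microRNA sequences came from RefSeq (GRCm38.p6). Of the tested genes, 10475 (64.4%) had a promoter window, so no motif comparison over all tested genes was made.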

Additional observations from a re-analysis of the deposited data

How the results depend on the processing

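The 6 counts of called genes were recomputed in 102 alternatives, and 89 stayed within 1.5 times the reported count. The 8-fold counts rest on the pseudocount, since a smaller one lowers the floor under genes near 0. They were 569 higher with 0.5, 1202 higher and 173 lower with 0.1, 767 and 104 on the TPM scale, and 1273 and 234 by voom on recovered fragments, a setting chosen after seeing the data. With a filter of 5 FPKM, which tests fewer genes, 5329 were higher, 3262 lower and 2230 higher by 2-fold. Under quantile normalization 2246 were higher and 2445 lower by 2-fold, and 84 lower by 8-fold. With no filter 12247 genes were higher and 6110 lower. Leaving out 1 library in turn gave 8132 to 8303 higher and 4791 to 5018 lower genes. The same gave 3394 to 3478 and 1396 to 1545 genes by 2-fold, and 334 to 344 and 48 to 56 by 8-fold.

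With the replicate number as a block, 8244 genes were higher and 4863 lower, and 3429 and 1460 by 2-fold. In none of the 3 same-numbered pairs did the correlation of deviations exceed 0.1, though 3 libraries a group are too few to settle whether the numbers pair libraries.

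Of 224 genes named, 8 changed sign in some alternative. Under quantile normalization Eef1a1 was at 0.51, Eef2 at 0.19, Rplp1 at 0.45, Spp1 at 0.31 and Tnc at 0.28. Under median-ratio scaling Cd44 was at −0.0101 and Rplp0 at −0.0852. With 1 library left out in turn, Cxcl10 ranged from −0.386 to 0.445, Rplp1 from −0.113 to 0.0281, Spp1 from −0.0756 to 0.0231 and Tnc from −0.185 to 0.0331. Of 39 list medians, 5 changed sign, all of small or mixed lists. Skeletal muscle went from 0.10 to −0.47 (filter of 5 FPKM), −0.0874 (median-ratio) and −0.174 (quantile), neural from −1.12 to 0.10 (no filter) and endoderm from 1.29 to −2.02 (filter of 5 FPKM). Sex chromosome genes went to −0.0831 (quantile) and housekeeping genes to −0.0339 (median-ratio). Causes other than those named were not tested. Depth limits what can be said of genes at or under 3 fragments in a group, whose fitted changes depend on the pseudocount and are no bounds.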
